A study of Mus musculus with 6 samples.

Results

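The MHC class II genes described here are H2-Aa, H2-Ab1 and H2-Eb1, which encode chains of the class II molecules, Cd74, Ciita and H2-DMa. They were taken by name as genes of this pathway, with earlier results of these data known. All 6 were found among the 24391 genes of the count table. RNA was sequenced from brachiocephalic arteries, a site of atherosclerotic lesions, of 3 wild type (WT) and 3 Col15a1 -/- (KO) mice. Both groups had a C57BL/6 background and were fed a Western diet for 18 weeks. The series title describes a deletion restricted to smooth muscle cells, and the genotype label reads Col15a1 -/-. The driver of the deletion, the age and the sex of the mice, and any other allele that both groups share are not given in the labels used here. Type XV collagen, the product of Col15a1, is a matrix protein of basement membrane zones. The comparison is of class II transcripts in KO against WT arteries.

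Class II molecules are pairs of an alpha and a beta chain that display peptides from endosomes to CD4+ T cells. In mice H2-Aa and H2-Ab1 encode the 2 chains of the A molecule, and H2-Eb1 encodes the beta chain of the E molecule. The invariant chain, encoded by Cd74, escorts new class II molecules to endosomes and blocks their groove until it is cut away, and the DM molecule, a pair of H2-DMa and an H2-DMb product, exchanges its last fragment for a peptide. Ciita encodes the coactivator that switches these genes on. It does not bind DNA itself but joins factors (the RFX complex, NF-Y and CREB) that sit on a conserved promoter module with an X box and a Y box. Dendritic cells, B cells and activated macrophages carry most class II, and interferon gamma induces it in other cells.

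The promoter module was looked for upstream of the class II genes, because the members share a regulator and their levels are compared below. The letters searched were GNAAC, found in the X box, followed on the same strand by ATTGG, the Y box, with 20 to 35 bases from the start of the first to the start of the second. The letters and spacing were chosen after the sequences were read, and both strands of the 250 bases before each start were searched. RefSeq windows (GRCm38.p6) were matched for 8 of 12 class II genes, the members and 6 further class II chains. The windows searched held none for H2-Ab1, Cd74, Ciita and H2-Ea-ps. The promoters of these genes were therefore not examined, and whether they hold the pair is not known here. The pair was found in 6 of the 8 genes with a window, which had 9 windows between them. This count is a description, because the letters were chosen after the sequences were read. Over all windows searched the pair was in 773 of 32851 (2.35%). GNAAC alone was in 79.6% and ATTGG alone in 33.8% of these windows. The stretches below run 5′ to 3′ on the gene's strand, with the 2 motifs in capitals; the first 2 are members, and the other 4 are relatives with which their values are compared.
H2-Aa, chr17:34287847-34287924, minus strand: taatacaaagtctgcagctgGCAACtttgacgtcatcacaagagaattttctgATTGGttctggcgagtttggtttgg
H2-Eb1, chr17:34305756-34305832, plus strand: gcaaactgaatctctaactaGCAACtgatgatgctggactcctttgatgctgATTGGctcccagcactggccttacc
H2-DMb1, chr17:34153077-34153154, plus strand: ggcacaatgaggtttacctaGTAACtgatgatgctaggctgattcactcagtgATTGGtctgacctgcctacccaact
H2-Oa, chr17:34092283-34092360, plus strand: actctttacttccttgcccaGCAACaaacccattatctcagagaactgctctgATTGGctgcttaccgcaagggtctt
H2-Ob, chr17:34238798-34238872, plus strand: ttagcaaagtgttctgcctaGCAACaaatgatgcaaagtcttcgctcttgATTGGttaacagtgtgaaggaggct
H2-Eb2, chr17:34325523-34325599, plus strand: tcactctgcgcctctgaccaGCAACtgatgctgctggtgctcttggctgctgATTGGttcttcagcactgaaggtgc
The Y box began 48 bases before the start of H2-Aa and 59 before that of H2-Eb1, and the spacing of the pair was 33 and 32 bases. Over the 6 genes the spacing ran from 30 to 33 bases. The windows of H2-DMa and H2-DMb2 held no such pair, which says only that these letters are not there.

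Total counts per library ran from 22223584 to 26982005. Col15a1 was at 574, 407 and 501 CPM (library-scaled counts, adjusted by the TMM method) in WT 1, 2 and 3 and at 193, 198 and 90.9 CPM in KO 1, 2 and 3. Neuronal transcripts set 2 libraries apart: 6 sympathetic neuron markers summed to 1450.02 CPM in library WT 2 and 3193 CPM in library KO 3, against 84.7 CPM in the lowest library (KO 2). Smooth muscle markers were abundant, with a summed level of 5163 to 13737 CPM over all libraries. The labels also name epithelial cells, and the epithelial gene Epcam was at 0.172 to 1.57 CPM.

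Transcripts of H2-Aa, H2-Ab1, H2-Eb1 and Cd74 were abundant in both groups. For all 6 members every KO library lay below every WT library. The chain genes and Cd74 were about 1.6-fold lower in KO, Ciita 1.48-fold and H2-DMa 1.26-fold. No member passed the threshold of 0.05 for the adjusted p. Groups that do not overlap with KO below WT were found for 8.38% of the 15937 genes tested, and values below 0 on the log2 fold change scale for 39.1%. Groups that do not overlap with KO above WT were found for 8.33%. These shares are the background for the list counts below. The members and the lists were chosen with earlier results of these data known, so the counts are a description.

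H2-Aa (chromosome 17, 34419696 to 34424716 in mm9, minus strand), the alpha chain gene, was at 335, 442 and 277 CPM in WT and at 218, 242 and 179 CPM in KO. WT 2 was the highest library and KO 3 the lowest. The WT mean was 352 ± 83.8 CPM and the KO mean 213 ± 31.6 CPM (SD, 3 libraries each, n = 3), with a log2 fold change of -0.72 (SE 0.21, unadjusted p 0.0147 and adjusted p 0.587 by edgeR's quasi-likelihood test).

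H2-Ab1 (chromosome 17, 34400172 to 34406363), which encodes the partner beta chain, was at 266, 312 and 217 CPM in WT and at 163, 199 and 135 CPM in KO. Its groups lay closest among the chain genes: WT 3 was 1.09 times KO 2. The log2 fold change was -0.68 (SE 0.20, edgeR adjusted p 0.587). H2-Eb1 (chromosome 17, 34442812 to 34453619), the beta chain gene of the E molecule, was at 249.9, 322 and 207 CPM in WT and at 166, 178 and 145 CPM in KO. Its KO libraries were close together, with the highest 1.22 times the lowest, and its log2 fold change was -0.67 (SE 0.19, edgeR adjusted p 0.587).

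Mice of the C57BL/6 background carry a defective copy of the E alpha chain gene, listed as H2-Ea-ps, so the E beta chain has no partner. H2-Ea-ps had 2 reads in WT 3 and 0 reads in the other 5 libraries. A count of 0 allows up to 3 reads, which is 0.111 to 0.135 CPM at these depths, while H2-Eb1 was at 145 CPM or more in the same libraries.

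Cd74 (chromosome 18, 60963503 to 60972306), the invariant chain gene, was the most abundant member. It was at 492, 716 and 455 CPM in WT and at 356, 385 and 284 CPM in KO. WT 2 stood above the other WT libraries, and the lowest WT library was 1.18 times the highest KO library. The log2 fold change was -0.70 (SE 0.23, edgeR adjusted p 0.587).

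Ciita (chromosome 16, 10480165 to 10527733), the coactivator gene, was at 46.9, 56.1 and 43.95 CPM in WT and at 36.9, 36.4 and 26.1 CPM in KO. The KO libraries 1 and 2 were nearly equal and KO 3 was lower. The log2 fold change was -0.56 (SE 0.18, edgeR adjusted p 0.587).

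H2-DMa (chromosome 17, 34259777 to 34276046), the alpha chain gene of the peptide exchange molecule, was at 17.8, 24.3 and 19.2 CPM in WT and at 17.0, 16.1 and 15.7 CPM in KO. The groups came near to touching, with WT 1 only 1.04 times KO 1. The log2 fold change was -0.33 (SE 0.15, unadjusted p 0.0699 and adjusted p 0.644 by edgeR).

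**Figure D1:**
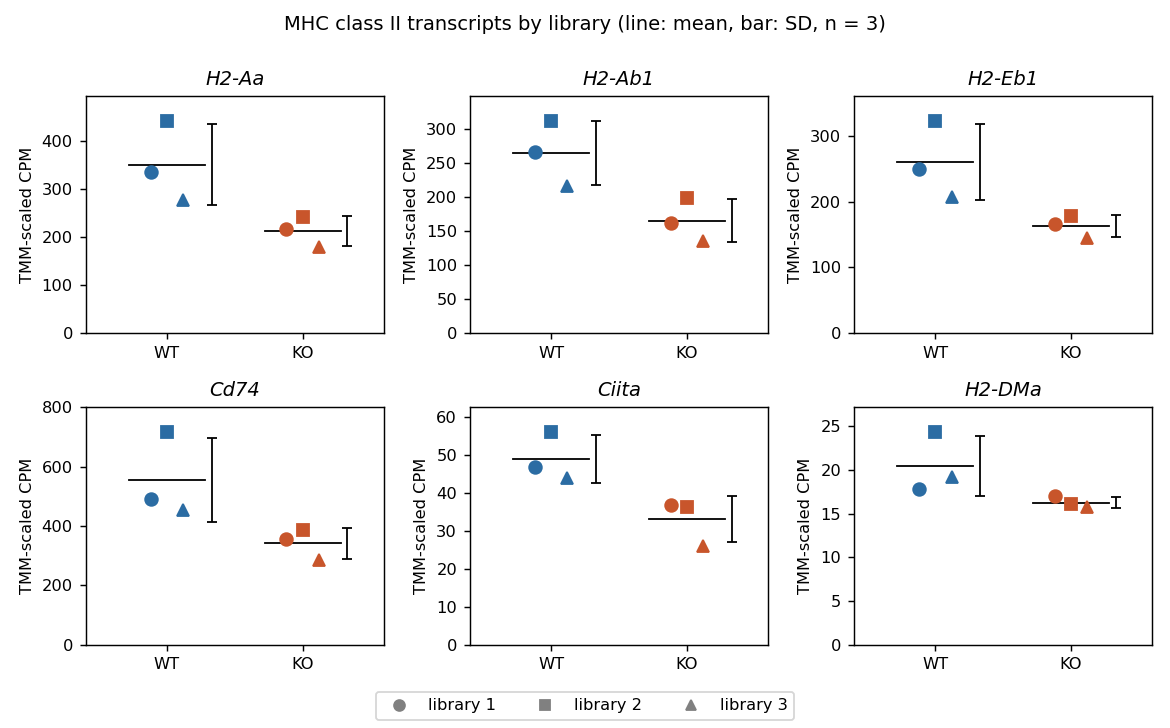
CPM (vertical axes, from 0) of the 6 MHC class II genes in each library, by group, with the mean as a line and the SD as a bar. Every KO point lies below every WT point in each panel, and WT library 2 is the highest point for each gene (716 CPM for Cd74).

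Before adjustment, 5 of 6 members had an edgeR p under 0.05, all lower in KO, against 634 lower genes among all 15937 tested (3.98%). After adjustment edgeR called 0 of 6 members and 0 of 15937 genes (0%). The targeted gene Col15a1 was thus not called either (log2 fold change -1.62, edgeR adjusted p 0.587). DESeq2 called 63 of 14945 genes (0.422%), with Col15a1 among them (DESeq2 adjusted p 0.00219). It also called 0 of 6 members, with adjusted p from 0.116 (H2-Eb1) to 0.573 (H2-DMa), and limma-voom called 0 members and 0 genes. The spread within WT was larger than the gap between the groups: the highest WT library was 1.28 (Ciita) to 1.596 (H2-Aa) times the lowest, and the lowest WT library was 1.04 (H2-DMa) to 1.19 (Ciita) times the highest KO library. Counting error was small beside the spread within WT, at most 5.21% of a count (H2-DMa). For H2-DMa it was not smaller than the gap between the groups. Its closest libraries, WT 1 and KO 1, had 391 and 395 counts before scaling. The median log2 fold change of the members was -0.67, against 0.07 over all genes tested. It was -0.48 without WT 2, -0.57 without KO 3 and -0.39 without both.

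**Figure D2:**
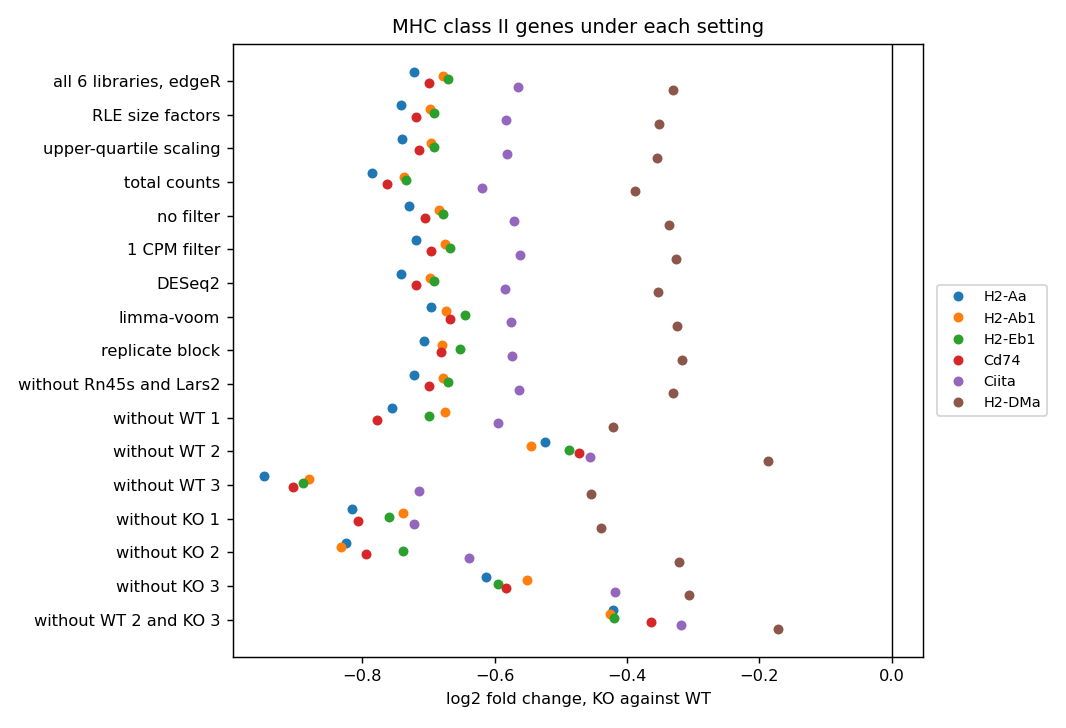
Log2 fold change of each member (horizontal axis; points left of 0 are lower in KO) in the fit on all libraries and under each other setting (rows). All points lie below 0, and the row without WT 2 and KO 3 lies nearest to it, from -0.43 (H2-Ab1) to -0.17 (H2-DMa).

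Levels of different genes were compared per kilobase of exon. Cd74 was highest in WT, at 392 ± 99.8 CPM per kb, followed by H2-Aa at 329 ± 78.3, H2-Ab1 at 222 ± 39.8 and H2-Eb1 at 156 ± 34.8 CPM per kb (SD, n = 3). The mean ± SD ranges of neighbours in this order overlapped, although the order was the same inside every library. Ranked by this level in WT, Cd74 was gene 76, H2-Aa 104, H2-Ab1 171 and H2-Eb1 240 of 15937. H2-DMa and Ciita were far lower, at 12.3 ± 2.1 and 8.17 ± 1.05 CPM per kb, and these ranges did not meet. The order was the same in KO, where Cd74 was at 241 ± 36.8 and Ciita at 5.52 ± 1.02 CPM per kb.

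The chain genes kept nearly fixed proportions from library to library, while their levels spanned 1.15 (H2-Eb1) to 1.33 (Cd74) on the log2 scale between WT 2 and KO 3. Per kilobase, the level of H2-Ab1 was 0.633 to 0.737 times that of H2-Aa, that of H2-Eb1 0.467 to 0.520 times, and that of Cd74 1.11 to 1.24 times. The groups overlapped in each of these ratios. Ciita was at 2.26% to 3.01% of the H2-Aa level. H2-DMa varied less between libraries (0.63 on the log2 scale), and its level relative to H2-Aa ran from 3.42% in WT 1 to 5.66% in KO 3, with overlapping groups.

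Genes with the most similar pattern were found by the root mean square difference between log2 CPM profiles over the 6 libraries, each centred on its mean, from the mean profile of H2-Aa, H2-Ab1, H2-Eb1 and Cd74. That profile was 0.68 in WT 2, 0.29 in WT 1, 0.05 in WT 3, -0.14 in KO 2, -0.30 in KO 1 and -0.57 in KO 3. Among 14707 genes with a mean of at least 1 CPM, those 4 genes ranked first by construction. H2-DMb1, which was not part of the profile, came next in rank 5 (difference 0.066), Ciita was in rank 12 (0.118), H2-DMb2 in rank 19 and H2-DMa in rank 204 (0.241). Outside the class II family the closest were Nfkbie, an inhibitor of NF-kappa-B (0.083), Gm6654 (0.094), the hyaluronan synthase gene Has1 (0.098), the chemokine receptor gene Ccr1 (0.106), Samsn1 (0.111) and the aryl hydrocarbon receptor gene Ahr (0.118). With 6 libraries that share the contrast between the groups, such likeness is a description.

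Among the other class II chains, the partner genes of H2-DMa lay below WT in every KO library, and the genes of the DM inhibitor overlapped. H2-DMb1, a partner of H2-DMa, was at 27.6, 35.5 and 24.5 CPM in WT and at 20.5, 21.5 and 15.0 CPM in KO, a log2 fold change of -0.62 (SE 0.21, edgeR adjusted p 0.587), with every KO library below every WT library. Its close copy H2-DMb2 was at 2.05, 2.72 and 2.20 CPM in WT and at 1.42, 1.88 and 1.14 CPM in KO (-0.65, SE 0.27). Reads that fit both copies were not counted, so their levels are uncertain. H2-Oa and H2-Ob encode the DO molecule, an inhibitor of DM found mainly in B cells. H2-Ob was at 3.999, 4.47 and 5.37 CPM in WT and at 4.31, 5.93 and 2.88 CPM in KO, with a log2 fold change of -0.08 (SE 0.31). H2-Oa had 3 to 25 counts per library and a log2 fold change of -0.03 (SE 0.72), and both genes overlapped between groups. H2-Eb2, a second E beta gene, had 39, 41 and 63 counts in WT and 27, 16 and 5 in KO (-1.44, SE 0.61, edgeR adjusted p 0.622). In this list of 6 genes, 5 were tested and 0 passed. All 5 had a log2 fold change below 0 (39.1% of all genes tested), 3 with groups that did not overlap (8.38%). The median log2 fold change was -0.62. Without KO 3, 3 of 5 were negative.

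The promoter factors that Ciita joins lay on both sides of 0. Of 7 tested, 5 were above and 2 below WT in the fit, the median log2 fold change was 0.11, and 0 passed. Among the RFX subunit genes, Rfx5 was at 25.0, 22.5 and 25.1 CPM in WT and at 26.5, 24.4 and 18.6 CPM in KO, a log2 fold change of -0.06 (SE 0.16). Rfxap was at 8.82, 8.26 and 7.53 CPM in WT and at 11.2, 10.4 and 9.77 CPM in KO, with every KO library above every WT library, as for 8.33% of all genes tested (0.35, SE 0.14, edgeR unadjusted p 0.049 and adjusted p 0.617), and Rfxank was at 0.06 (SE 0.23). The NF-Y subunit genes Nfya, Nfyb and Nfyc had log2 fold changes of -0.22, 0.14 and 0.15, and Creb1 of 0.11, with overlapping groups in all 4. The number with a negative value was 5 of 7 without WT 3 (median -0.01) and 1 of 7 without KO 3 (median 0.16).

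For genes that prepare antigen, trim the invariant chain or remove class II from the cell surface, KO 3 had the lowest summed level of all libraries. All 8 had a log2 fold change below 0 (median -0.74), against 39.1% of all genes tested, though March8 was at -0.01 (SE 0.10). Of the 8, 6 did not overlap between groups (8.38% over all genes) and 0 passed. Ifi30, the lysosomal thiol reductase that unfolds antigens, was at 78.4, 77.1 and 72.8 CPM in WT and at 49.9, 50.2 and 27.9 CPM in KO (-0.83, SE 0.24, edgeR adjusted p 0.587). March1, a ubiquitin ligase that removes class II from the cell surface, was at 37.3, 39.4 and 41.5 CPM in WT and at 29.2, 27.7 and 18.1 CPM in KO (-0.66, SE 0.20). The legumain gene Lgmn had a log2 fold change of -0.75 (SE 0.28) and the cathepsin gene Ctsb of -0.79 (SE 0.40). Ctss encodes the protease that completes cleavage of the invariant chain and is named here after its values were seen. It was at 966, 1215 and 1230.2 CPM in WT, at 875 and 641 CPM in KO 1 and KO 2, and at 153 CPM in KO 3, far below every other library, with a log2 fold change of -1.03 (SE 0.59). The list median was -0.47 without KO 3.

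The co-stimulation list held genes of the second signal to T cells. It also held Cd274 (log2 fold change -0.32, SE 0.20) and Pdcd1lg2, whose products inhibit T cells. Its median was -0.85, with 5 of 6 negative (39.1% of all genes tested), 4 without overlap (8.38%) and 0 called. Cd40 was at 7.59, 11.1 and 7.22 CPM in WT and at 4.31, 4.71 and 3.98 CPM in KO (-0.99, SE 0.22, edgeR unadjusted p 0.00422 and adjusted p 0.587). Cd86 was at 16.6, 26.2 and 14.6 CPM in WT and at 11.2, 11.9 and 6.54 CPM in KO (-0.96, SE 0.32). WT 2 was the highest library for both, as for class II. Cd80 had a log2 fold change of -0.75 (SE 0.35), and Pdcd1lg2 one of -1.91 (SE 0.75) with 3.23 CPM in WT 2 and at most 0.850 CPM elsewhere. The list median was -0.56 without WT 2 and -0.33 without WT 2 and KO 3.

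The interferon gamma axis, which induces Ciita, showed small differences. Ifng itself was at 0 to 0.336 CPM and was too low to test. All 7 genes tested were below 0 in log2 fold change (median -0.18, or -0.34 without WT 3), against 39.1% of all genes tested. Of these 7, 2 did not overlap between groups (8.38% over all genes) and 0 passed. The receptor gene Ifngr2 was at 68.8, 88.2 and 74.8 CPM in WT and at 61.7, 64.7 and 54.1 CPM in KO (-0.36, SE 0.13, edgeR adjusted p 0.599). Irf1, a transcription factor that drives Ciita, was at -0.20 (SE 0.12), and the kinase genes Jak1 and Jak2 were at -0.17 (SE 0.12) and -0.17 (SE 0.13) on the log2 scale.

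MHC class I genes, which present peptides of the cell's own proteins and are made by nearly all cells, had a median of -0.23. Of 12 genes 11 were negative (39.1% of all genes tested), 4 did not overlap (8.38%) and 0 passed. The median was -0.13 without WT 2 and -0.35 without KO 3, where 9 of 12 were negative. H2-D1 was at 197, 245 and 231 CPM in WT and at 177, 166 and 161 CPM in KO (-0.42, SE 0.12, edgeR adjusted p 0.587); reads shared with related class I genes were not counted. The immunoproteasome gene Psmb8 was at -0.38 (SE 0.14), the light chain gene B2m at -0.31 (SE 0.15) and the loading factor gene Tapbp at -0.18 (SE 0.10) on the log2 scale. The summed CPM of H2-Aa, H2-Ab1, H2-Eb1 and Cd74 was 0.505 to 0.670 times that of the class I list in the WT libraries and 0.365 to 0.481 times in the KO libraries, so the groups did not overlap in this ratio.

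**Figure D3:**
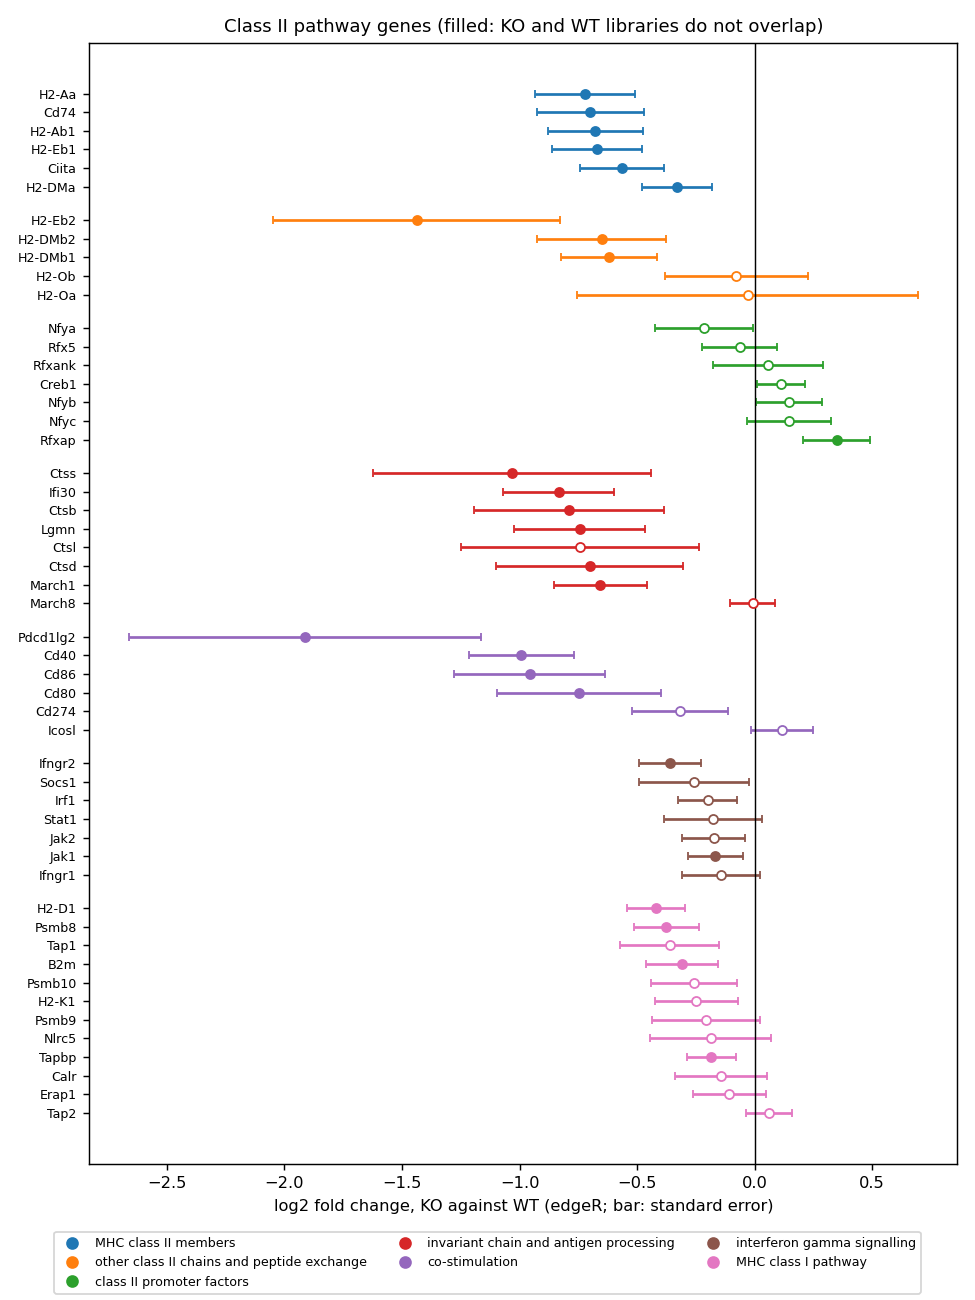
Log2 fold change, KO against WT, with its standard error (horizontal axis) for the tested genes of the 7 class II, class I and related lists (rows, coloured by list); filled points are genes whose libraries do not overlap between groups. The members lie between -0.72 (H2-Aa) and -0.33 (H2-DMa), and the promoter factors lie on both sides of 0.

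Macrophage and leukocyte markers were also lower in the KO libraries. Of 12 macrophage markers, 11 were below 0 in log2 fold change and did not overlap between groups (8.38% of all genes tested). The median of the 12 was -0.91, or -0.60 without KO 3, and 0 were called. Their summed level was 4643 to 5610 CPM in WT and 1352 (KO 3) to 3604 CPM in KO. The 6 pan-leukocyte markers were all below WT (median -0.84, or -0.51 without KO 3), and their sum was 736 to 826 CPM in the WT and 239.8 to 565 CPM in the KO libraries. Of 10 dendritic cell markers 6 were negative (39.1% of all genes tested). Their median was -0.26, or -0.02 without WT 1 and -0.05 without KO 3. In 3 of the 10, Itgax, Ccr7 and Batf3, every KO library was below every WT library (8.38% over all genes), and the other 7 overlapped. Itgax, an integrin gene of dendritic cells that macrophages also express, made up most of the summed level in every library but KO 3, at 195, 250 and 283 CPM in WT and 184, 127 and 23.4 CPM in KO (log2 fold change -1.12, SE 0.68). The list summed to 278 to 357 CPM in WT and 90.6 to 255 CPM in KO, and its other 9 genes to 61.0 to 82.9 CPM in WT and 67.2 to 80.5 CPM in KO. Ccr7, a chemokine receptor gene of migrating dendritic cells, had a log2 fold change of -1.76 (SE 0.62). Batf3, a transcription factor gene of cross-presenting dendritic cells, had one of -0.82 (SE 0.20), and Zbtb46, a factor of classical dendritic cells, one of -0.04 (SE 0.14). The 4 markers above 0 were Xcr1 (0.05, SE 0.26), Clec9a (0.17, SE 0.28), Siglech (0.24, SE 0.41) and Clec10a (0.39, SE 0.34). Of these, Xcr1 and Clec9a also mark cross-presenting dendritic cells. The B cell markers Ms4a1 and Cd79a were low in all 6 libraries, at 0.236 to 2.01 CPM and 0.591 to 2.05 CPM, and overlapped between the groups. In these bulk samples fewer cells of a type and less RNA per cell cannot be told apart, and the part of these cell types in the class II difference was not tested.

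Relative to macrophage transcripts, class II overlapped between the groups. The ratio of the 4 summed class II transcripts to the 12 summed macrophage markers was 0.289, 0.382 and 0.206 in WT 1, 2 and 3 and 0.251, 0.310 and 0.550 in KO 1, 2 and 3. KO 3, with the lowest class II and the lowest macrophage level, had the highest ratio. The mean log2 ratio was higher in KO than in WT by 0.30, and without KO 3 the difference was -0.02. Relative to the leukocyte gene Ptprc the ratio was 5.82, 6.56 and 4.64 in WT and 4.91, 6.01 and 9.98 in KO. WT 2 had more class II than WT 1 or WT 3 with a macrophage sum (4689 CPM) between theirs. This sum was weighted to its most abundant marker, Lyz2, at 2542, 2437 and 3293 CPM in WT 1, 2 and 3. By mean log2 CPM over the 12 markers, WT 2 was the highest library (7.513), close to WT 3 (7.4998) and above WT 1 (7.401). The order of the WT libraries in macrophage level thus depended on the measure.

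**Figure D4:**
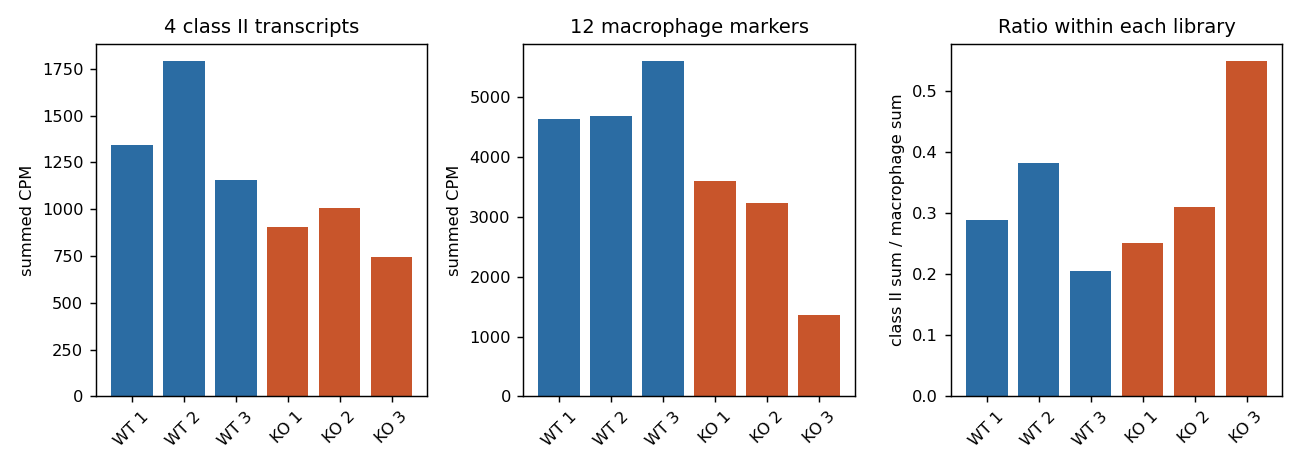
Summed CPM of 4 class II transcripts and of 12 macrophage markers, and their ratio, in each library (bars from 0; blue WT, orange KO). Both sums are lower in every KO library, and the ratio is highest in KO 3 (0.550) and lowest in WT 3 (0.206).

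Of the remaining cell type lists, adipocyte markers were the one whose summed level separated the groups, with KO above WT. Their sum was 217 to 713 CPM in WT and 882 to 1147 CPM in KO. All 6 had a log2 fold change above 0, as had 9701 of all 15937 genes tested. The median was 0.82, from 0.48 without WT 2 to 1.25 without WT 1. Of the 6, 4 did not overlap between groups, with KO above WT (8.33% over all genes). The part of these cells in the class II difference was not tested. All 8 T cell markers were negative (median -0.53), against 39.1% of all genes tested. Only 1 of 8 had groups that did not overlap (8.38% over all genes). Without KO 3 the median was -0.13 with 6 of 8 negative. Their sums were 26.8 to 33.2 CPM in WT and 7.76 to 31.8 CPM in KO. For the other lists the direction or size depended on which library was left out. The sympathetic neuron median was 0.82 (0 of 6 negative) with all libraries, 3.09 without WT 2 and -2.52 without KO 3, where 6 of 6 were negative. The smooth muscle median was 0.34 (0 of 5 negative) and ran from -0.15 without KO 2 (3 of 5 negative) to 0.62 without KO 3. The endothelial median was 0.05 (1 of 5 negative) and ran from -0.23 without KO 1 (3 of 5 negative) to 0.26 without KO 3. Of 6 thymocyte markers 5 were tested and 1 was negative, with a median of 0.65 that ran from -0.05 without KO 2 (3 of 5 negative) to 2.31 without WT 3. Of 6 thymic epithelial markers 2 were tested (median 1.18, or 0.58 without KO 2, neither negative), with Foxn1 at 0 counts in all libraries. No gene of these lists passed in edgeR.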

How the data were processed

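Per the file headers, the authors counted reads with featureCounts 1.4.6-p4 on exons of an mm9 gene annotation from UCSC and deposited them as raw counts; the command set no strand, pairing or multi-mapping option. The submitters' processing notes also list CASAVA, Subread, DESeq2 and a STAR version of 3.0. Reads in several places or genes were left out, which lowers close copies. Member exons shared no bases with other genes, except 12 bases of Cd74.

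All 15937 genes that passed filterByExpr (minimum count 10) were fitted with edgeR 4.0.16 in R 4.3.3 (TMM, quasi-likelihood test, two-sided, Benjamini-Hochberg over all genes, threshold 0.05), checked on simulated data. SE were derived from the F statistic; log2 CPM used a prior count of 2. DESeq2 1.42.0, limma-voom (limma 3.58.1), other scalings, filters and left-out libraries were alternatives. Libraries of a group are separate animals, and no replicate pair agreed within sampling noise. The genes and the lists (class II, promoter factors, antigen processing, co-stimulation, interferon gamma, class I and cell type markers) were chosen with earlier results of these data known. All members, chains and promoter factors, up to 4 genes per further pathway list by smallest unadjusted p, and the 6 nearest profiles were named; marker genes and Ctss were named after their values were seen. The B cell marker list is not reported here as a whole.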

Additional observations from a re-analysis of the deposited data

How the results depend on the processing

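The direction of all 6 members was the same under every setting tried, and 0 of 6 passed an adjusted p of 0.05 in any of them. Their adjusted p ran from 0.116 to 1.00 over all settings. With a library left out, the log2 fold change ran from -0.95 to -0.52 for H2-Aa and from -0.45 to -0.19 for H2-DMa, the smallest sizes without WT 2. Total counts in place of TMM gave -0.79 for H2-Aa and moved the median of all genes from 0.07 to 0.02. DESeq2 called 63 genes over the whole table, 30 lower and 33 higher, and edgeR called 1 without WT 2 and KO 3, a setting chosen after the data were seen. No member was among them. The cause of these differences was not tested. The number of promoter factors with a negative value was 2 with all libraries, 1 to 5 with a library left out and 1 without WT 2 and KO 3. For the other class II chains it was 5, 3 to 5 and 3. The class II ratio to macrophage markers (KO minus WT 0.30 on the log2 scale) moved by less than its spread of 0.52 under each alternative, from -0.02 without KO 3, where the sign turned, to 0.54 without KO 1. Deviations of same-numbered libraries correlated at 0.43, -0.68 and -0.58, and those of WT 2 and KO 3, the libraries with more neuronal transcripts, at 0.77. With these 2 libraries among the pairs, the correlations cannot show whether same-numbered libraries belong together. A replicate block in the fit left 0 genes called and H2-Aa at -0.71. Depth limits H2-Oa, H2-Eb2, H2-Ea-ps and Ifng, which had few counts.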
